A study of Homo sapiens with 6 samples.

Results

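The distal long arm of chromosome 17 was represented by 255 protein-coding genes that start above 60 Mb in GRCh38, of 27104 genes and 15761 protein-coding genes in the deposited tables. The interval was chosen by its measured values, because the genes from 70 Mb to the chromosome end had higher expression together in one group of libraries, so the difference between the groups is a description of these genes and carries no test of them. The cells were OVCAR3, a long-established line from a human ovarian cancer, at passages 20 to 25, whose RNA was sequenced after transfection in triplicate. There were 3 libraries labelled empty vector, which are the controls, and 3 labelled DAB2IP O/E (overexpression) for a vector made to raise DAB2IP, a Ras GTPase-activating scaffold protein. The extraction text of the labels speaks of adipocytes, while every other label names OVCAR3. Promoter, dose and time of the vector were not given in the sources used here.

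The telomeric end of 17q is densely packed with genes, many of them short, GC-rich and broadly expressed. It holds genes for sugar and lysosomal enzymes (GAA, SGSH, GALK1), Polycomb chromobox proteins (CBX2, CBX8), fatty acid synthase (FASN), signalling adaptors (GRB2, RPTOR) and the cytoplasmic actin gene ACTG1. Genes of the interval nearer to the centromere include the RNA helicase gene DDX5, the nuclear import receptor gene KPNA2 and AXIN2, a feedback inhibitor of WNT signalling.

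DAB2IP went against the labels. It was at 7.49, 7.76 and 8.01 FPKM (fragments per kilobase of transcript, scaled to the depth of the library) in the empty vector libraries and at 5.74, 5.02 and 5.73 FPKM in those labelled DAB2IP O/E, a log2 change of -0.43 (SE 0.06, limma adjusted p = 0.00548, exact permutation p = 0.1, 2-sided, the smallest possible with 3 against 3). Every direction given here is therefore for the libraries labelled DAB2IP O/E, called O/E 1 to 3, against the empty vector libraries. All 8 epithelial and ovarian marker genes had a mean of at least 1 FPKM. None of the 5 adipocyte markers in the table did, the highest being PLIN4 at 0.469 FPKM. Reads assigned to the genes of the deposited tables were recovered from the deposited values. They numbered 20445867, 21967550 and 28116259 in empty vector 1 to 3 and 35434533, 28738421 and 24743563 in O/E 1 to 3.

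Promoter sequences, from 250 bases before to 50 after the transcription start, are shown for the members at both ends of the range and for abundant members with little change. They come from RefSeq on GRCh38.p14, whose table matched 172 of the 255 members. The members shown are those with the largest rises that had an entry (MCRIP1, chr17:81833242-81833541, minus strand, C17orf58, chr17:67996420-67996719, minus strand, and LGALS3BP, chr17:78979874-78980173, minus strand), the largest fall (SLC16A3, chr17:82228185-82228484, plus strand) and a pair of highly expressed members with little change (DDX5, chr17:64506589-64506888, minus strand, and KPNA2, chr17:68035485-68035784, plus strand). Sequences run 5′ to 3′ on the strand of the gene, and capitals mark matches on either strand to the GC box, GGGCGG. Matches to a pair of other promoter elements, the CCAAT box and the TATA box (the letters TATAAA), were marked in the same way.
MCRIP1: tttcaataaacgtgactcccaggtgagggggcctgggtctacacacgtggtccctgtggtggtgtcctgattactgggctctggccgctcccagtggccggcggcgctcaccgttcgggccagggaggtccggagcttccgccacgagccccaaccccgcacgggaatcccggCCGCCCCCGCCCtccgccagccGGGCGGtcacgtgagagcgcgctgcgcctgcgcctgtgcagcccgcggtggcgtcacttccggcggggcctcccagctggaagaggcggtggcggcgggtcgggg
C17orf58: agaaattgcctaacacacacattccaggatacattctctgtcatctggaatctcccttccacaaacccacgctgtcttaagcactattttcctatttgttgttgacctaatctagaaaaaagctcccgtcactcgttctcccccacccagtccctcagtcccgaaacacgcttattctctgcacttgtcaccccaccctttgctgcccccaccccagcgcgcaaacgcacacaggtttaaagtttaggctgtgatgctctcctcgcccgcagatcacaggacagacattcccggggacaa
LGALS3BP: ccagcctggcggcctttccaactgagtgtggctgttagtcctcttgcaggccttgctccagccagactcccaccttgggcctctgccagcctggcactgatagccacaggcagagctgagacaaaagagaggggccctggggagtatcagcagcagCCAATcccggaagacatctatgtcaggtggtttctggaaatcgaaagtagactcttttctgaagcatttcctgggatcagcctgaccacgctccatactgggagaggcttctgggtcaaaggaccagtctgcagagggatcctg
SLC16A3: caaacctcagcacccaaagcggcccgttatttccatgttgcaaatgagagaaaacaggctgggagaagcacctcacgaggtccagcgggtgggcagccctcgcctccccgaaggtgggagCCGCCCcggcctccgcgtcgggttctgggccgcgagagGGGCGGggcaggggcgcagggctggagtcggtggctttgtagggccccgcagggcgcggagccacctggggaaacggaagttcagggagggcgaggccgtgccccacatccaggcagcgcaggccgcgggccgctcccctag
DDX5: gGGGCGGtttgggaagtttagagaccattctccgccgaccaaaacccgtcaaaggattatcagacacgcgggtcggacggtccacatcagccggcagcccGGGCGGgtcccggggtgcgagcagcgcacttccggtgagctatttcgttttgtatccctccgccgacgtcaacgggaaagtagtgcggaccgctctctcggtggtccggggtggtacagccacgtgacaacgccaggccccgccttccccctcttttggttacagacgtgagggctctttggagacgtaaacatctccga
KPNA2: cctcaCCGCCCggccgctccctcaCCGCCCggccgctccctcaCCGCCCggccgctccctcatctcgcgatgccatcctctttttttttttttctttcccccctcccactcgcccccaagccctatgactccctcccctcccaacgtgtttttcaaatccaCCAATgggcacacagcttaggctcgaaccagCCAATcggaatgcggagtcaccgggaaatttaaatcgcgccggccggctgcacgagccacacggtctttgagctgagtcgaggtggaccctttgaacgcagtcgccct
The MCRIP1 promoter was 72.7% G and C with 3 GC box matches, and that of SLC16A3, which moved the other way, was 70% G and C with 2. The C17orf58 and LGALS3BP promoters were 51% and 56.7% G and C, with no GC box match in either. The shown members that rose thus had promoters of both kinds.

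Over the 133 tested members with an entry, 82.7% of promoters held a GC box, beside 71.5% of 8952 other tested protein-coding genes and 45% of all 35116 promoters in the table. A CCAAT box was found in 40.6%, beside 37.1% and 34.6%. The TATA box was found in 9.02%, beside 5.06% and 11.5%. The ETS site CCGGAAG was present in 22.6% and the E-box CACGTG in 10.5% of member promoters, beside 20.8% and 10.6% of the other tested protein-coding genes and 10.3% and 7.26% of all promoters. The NRF1 core GCATGCGC was in 6.77% of them, the CRE TGACGTCA in 1.5% and the AP-1 site TGACTCA in 3.76%, beside 5.98%, 3.42% and 2.67% of the other tested protein-coding genes and 3.05%, 1.85% and 4.95% of all promoters. The median promoter was 69.3% G and C in tested members and 65.3% in other tested protein-coding genes. Between the 48 members with an entry that were called higher and the 83 that were not called, GC box shares were 77.1% and 85.5%. These motifs were not searched with overlaps between one another taken out, and a match is a match of letters only.

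Of the 255 members, 186 averaged 1 FPKM or more over the 6 libraries and were tested, and the other 69 were described by level. The group means of tested members were compared on log2(FPKM + 1) with limma across all genes, and a gene was called at a Benjamini-Hochberg adjusted p under 0.05. In the libraries labelled DAB2IP O/E, 66 members were called higher (35.5%), beside 9.29% of all 14761 genes tested. Lower calls were made for 5 members (2.69%), beside 9.17% of all genes tested, and 115 were not called. Since this contrast chose the members, nothing is read from these shares. The log2 change was above 0 for 155 of 186 members, with a median of 0.16 (quartiles 0.04 and 0.28), a median FPKM ratio of 1.15. The median over all genes tested was -0.0004. The number of higher calls depended on single libraries: it was 19 without O/E 3, 22 without empty vector 2 and 23 without O/E 1, and in those fits 3.5% to 4.45% of all genes were called higher, beside 10.2% to 12.4% of the members.

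All 3 O/E values lay above all 3 empty vector values for 97 members (52.2%), beside 19.5% of all genes tested. They lay below for 8 members, beside 20.9% of all genes. In the authors' deposited table, with its sign turned to the same direction, 87 of the 232 members with an adjusted p were past 0.05 and higher, beside 9.73% of all genes there. That table had 6 members lower, beside 9.26% of all genes.

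The change was not even along the interval. The 46 tested members from 60 to 70 Mb had a median log2 change of 0.03 and a median FPKM ratio of 1.03, with 5 called higher (10.9%, beside 9.29% of all genes tested) and 2 lower (4.35%, beside 9.17%). When single libraries were left out, this stretch had 3 to 8 higher calls (8 without empty vector 1 and 3 without empty vector 2 or any 1 O/E library), and its median ran from 0.02 without empty vector 3 to 0.07 without empty vector 1. The 140 tested members from 70 Mb to the end had a median log2 change of 0.22 (quartiles 0.13 and 0.31) and a median FPKM ratio of 1.19, with 61 called higher (43.6%) and 3 lower (2.14%). The far stretch thus carried most of the higher calls, and it is also the stretch that prompted the choice of the interval. Without O/E 3, empty vector 2 or O/E 1, the far stretch had 16, 19 or 20 higher calls, and its median log2 change lay between 0.18 and 0.25 whichever library was left out.

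In steps along the chromosome, the median log2 change was 0.05 over 30 tested members from 60 to 65 Mb and -0.01 over 16 from 65 to 70 Mb. It was 0.11 over 15 members from 70 to 75 Mb, 0.17 over 72 from 75 to 80 Mb and 0.24 over 53 from 80 Mb to the end. In that last step 51 of 53 changes were above 0 and 28 members were called higher. The exceptions were SLC16A3, called lower, and RNF213, an E3 ubiquitin ligase gene, at 2.17 ± 0.25 FPKM (SD, n = 3) with empty vector and 2.03 ± 0.01 FPKM (SD, n = 3) with O/E, which was not called. A run of 37 consecutive tested members, from ENDOV at 80415165 to CCDC57 at 82101460, had changes above 0.

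**Figure D1:**
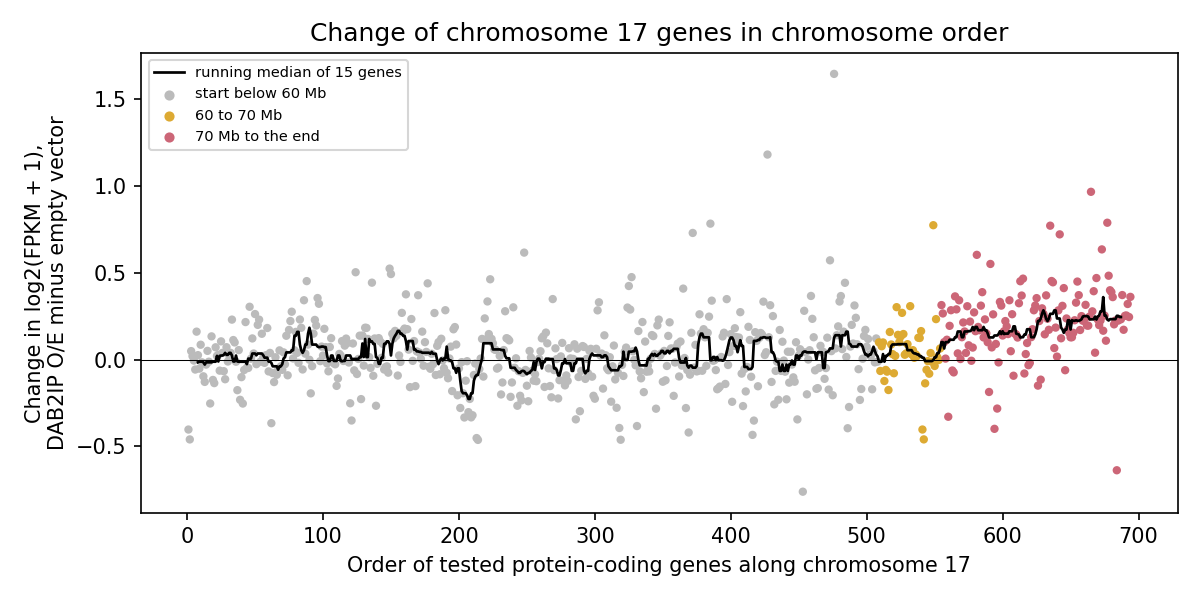
Each point is a tested protein-coding gene of chromosome 17, placed by its order along the chromosome (horizontal) and its change in log2(FPKM + 1) between the groups (vertical), with genes below 60 Mb in grey, 60 to 70 Mb in yellow and 70 Mb to the end in red. The black line is a running median of 15 genes, which lies near 0 over most of the chromosome and above 0 through the red stretch, where the median is 0.22.

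The rest of chromosome 17 gave the comparison on the same chromosome. Its 508 tested protein-coding genes below 60 Mb had a median log2 change of 0.02, with 50 called higher (9.84%) and 35 lower. The nearest tested genes below the 60 Mb limit were RPS6KB1, AC005702.2 and RNFT1, with log2 changes of -0.02, 0.12 and -0.01. The nearest above it were HEATR6, USP32 and APPBP2, with log2 changes of 0.10, -0.07 and 0.08. There was no step at that limit, and none of these genes was called. On either side of 70 Mb, WIPI1, PRKAR1A and MAP2K6 changed by log2 0.01, -0.003 and 0.06 below it, and SOX9, SLC39A11 and COG1 by 0.31, 0.27 and 0.10 above it. Of these only SLC39A11, a zinc transporter gene, was called, and it lost that call without any 1 of 5 of the 6 libraries (all but empty vector 3). The last tested members of the arm were FN3KRP, TBCD and METRNL, with log2 changes of 0.32, 0.25 and 0.36, the first 2 called higher.

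Among 212 windows of 10 Mb with at least 20 tested protein-coding genes across the genome, the window of chromosome 17 from 80 Mb had the highest median log2 change, 0.24. The window from 70 to 80 Mb ranked 6, with a median of 0.17, and that from 60 to 70 Mb ranked 51. Windows on chromosome 11 took ranks 2 to 4. The upper ranks were thus not confined to 17q. Since the genes from 70 Mb were chosen by this change, the high ranks of their windows were largely set by that choice. Of the 170 other genes in the interval that are not protein-coding, 52 were tested, with a median log2 change of 0.03. Of these, 4 were called higher (7.69%, beside 9.29% of all genes tested) and 2 lower (3.85%, beside 9.17%). They were taken from 60 Mb to the end together and were not split at 70 Mb.

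The members were then followed in single libraries, as the deviation of log2(FPKM + 1) from the mean of all 6 libraries, taken as the median over genes less that of all other protein-coding genes. From 70 Mb to the end this was -0.11, -0.12 and -0.09 in empty vector 1 to 3 and 0.17, 0.04 and 0.12 in O/E 1 to 3. The groups did not overlap, and O/E 2 lay nearest to the controls. From 80 Mb on it was -0.16, -0.15 and -0.09 in empty vector 1 to 3 and 0.21, 0.03 and 0.16 in O/E 1 to 3. From 60 to 70 Mb the values were 0.04, -0.03 and -0.06 with empty vector and 0.02, 0.04 and 0.02 with O/E, and the groups overlapped. Summed over the members from 70 Mb, expression was 2352.1, 2330.4 and 2441.9 FPKM with empty vector and 2913.5, 2700.9 and 2820.0 FPKM with O/E.

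**Figure D2:**
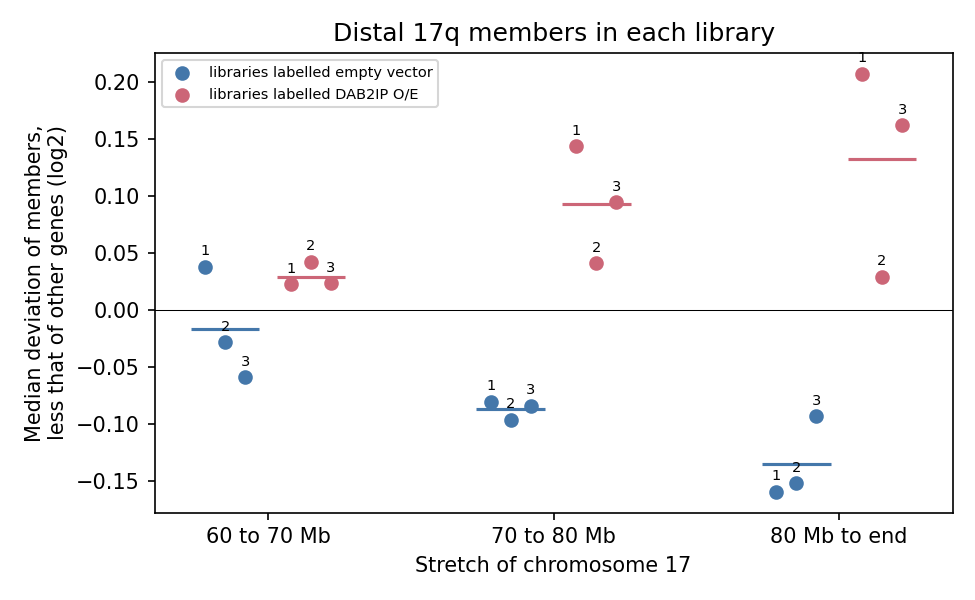
Points are single libraries, numbered by replicate, with empty vector in blue and DAB2IP O/E in red, for 3 stretches of the interval (horizontal); the vertical axis is the median log2 deviation of tested members less that of all other protein-coding genes, and bars are group means. The groups overlap from 60 to 70 Mb and lie apart in both stretches beyond 70 Mb, where O/E 2 is the lowest of the O/E libraries.

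O/E 1 was the highest O/E library for 97 of the 140 tested members from 70 Mb, and O/E 2 was the lowest for 97. Genes of high GC content elsewhere in the genome moved with this order of libraries. The 2219 other protein-coding genes in the highest of 5 equal bins of GC content (over 57.8% in the longest transcript) had median deviations of -0.09, -0.07 and 0.01 in empty vector 1 to 3 and of 0.12, -0.04 and 0.07 in O/E 1 to 3. The 78 members from 70 Mb in the same GC bin stood at -0.15, -0.13 and -0.07 with empty vector and at 0.20, 0.01 and 0.16 with O/E. The 62 members from 70 Mb of lower GC content stood at -0.05, -0.12 and -0.10 with empty vector and at 0.13, 0.07 and 0.09 with O/E. The groups lay apart in both sets of members, but both sets belong to the stretch chosen by this difference, so this carries no test.

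GC content was high in the far stretch, with a median of 59.2% over its tested members, 47.5% over those from 60 to 70 Mb and 48% over other protein-coding genes. Across 11096 other protein-coding genes, which share the same 6 libraries, the log2 change was larger at higher GC content (Spearman rho 0.346). The part of GC content in the change of the members was not tested. By GC bin, the median log2 changes of the far stretch, which was itself chosen by this change, were 0.23 over 78 members against 0.10 over 2219 other genes in the highest GC bin and 0.22 over 43 members against 0.04 in the bin below it. In the middle bin they were 0.12 over 15 members against -0.01. With the trends of GC content and transcript length removed, the far stretch had a median log2 change of 0.16, 63 members higher and 9 lower. That fit called 10.9% of all 14728 genes tested higher, beside 9.29% in the reported fit, and 1526 genes lower.

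**Figure D3:**
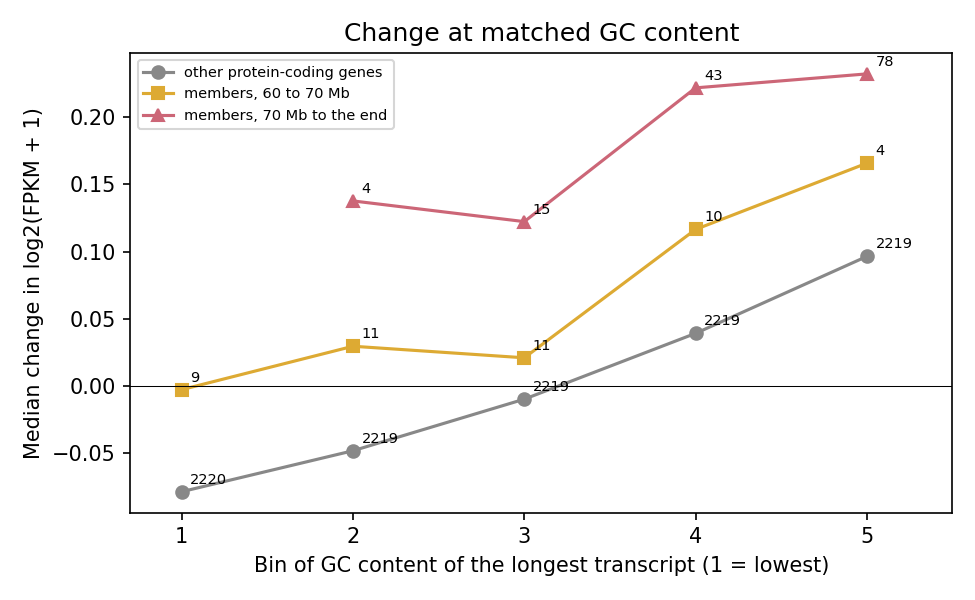
The vertical axis is the median change in log2(FPKM + 1) of tested protein-coding genes in 5 bins of transcript GC content (horizontal), for other genes of the genome (grey), members from 60 to 70 Mb (yellow) and members from 70 Mb to the end (red), with the number of genes beside each point. All 3 lines are higher in the top bin than in the lowest bin with genes of their set, and the red genes, which were chosen by this change, stand at 0.23 beside 0.10 for the grey in the highest bin.

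Within the interval, the change of the 186 tested members ran with position (Spearman rho 0.485 with start) and, over 185 of them, with GC content (0.402), which themselves go together there. In the 140 from 70 Mb the values were 0.305 with start and 0.208 with GC content. Level was not ordered with change (rho -0.028 with mean FPKM over the 186 members). Members on the plus strand had a median log2 change of 0.15 (83 genes) and those on the minus strand 0.18 (103 genes). The 61 members from 70 Mb that share no exon bases with another gene of the deposited tables had a median of 0.22, equal at 2 decimals to all 140. Overlap with annotated genes outside those tables was not counted.

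MCRIP1 showed the largest rise. It encodes a MAPK-regulated partner of the CtBP corepressors and lies at chr17:81822361-81833302 (ENSG00000225663.7). Its level was 1.74, 2.23 and 2.78 FPKM in empty vector 1 to 3 and 5.78, 4.53 and 5.65 FPKM in O/E 1 to 3, a log2 change of 0.97 (SE 0.13). Every O/E library lay above every control. Next was RAC3, a small GTPase that acts on the actin cytoskeleton, at 6.79, 7.63 and 8.73 FPKM with empty vector and 16.8, 11.5 and 14.2 FPKM with O/E (log2 change 0.79, SE 0.14). O/E 2 was the lowest O/E library for both genes.

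C17orf58, the only one of the 10 largest rises that lies below 70 Mb, was at 5.96, 8.002 and 6.79 FPKM with empty vector and 11.8, 13.3 and 12.4 FPKM with O/E (log2 change 0.77, SE 0.10). Here O/E 2 was the highest library. LGALS3BP, a secreted glycoprotein that binds galectins, was at 58.9, 61.3 and 67.5 FPKM with empty vector and 119.3, 95.2 and 108.7 FPKM with O/E (log2 change 0.77, SE 0.09). It was the most abundant of these 10 genes. MIF4GD, which takes part in translation of histone mRNA, rose from 5.39 ± 0.75 to 8.67 ± 0.20 FPKM (SD, n = 3 each; log2 change 0.60, SE 0.08).

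Enzymes made up much of the remainder. GAA, the lysosomal acid alpha-glucosidase that breaks down glycogen, was at 3.75, 3.96 and 5.34 FPKM with empty vector and 8.81, 6.84 and 7.70 FPKM with O/E (log2 change 0.72, SE 0.13). PYCR1, the mitochondrial enzyme of the last step of proline synthesis, was at 11.2, 11.4 and 13.0 FPKM with empty vector and 21.4, 16.98 and 18.8 FPKM with O/E (log2 change 0.63, SE 0.09). The groups lay apart for both. GALK1, which phosphorylates galactose, rose from 2.07 ± 0.33 to 3.50 ± 0.44 FPKM (SD, n = 3 each), and its call was lost without O/E 1 or O/E 3. DCXR, a reductase of sugars and dicarbonyls, rose from 8.53 ± 1.32 to 12.2 ± 0.72 FPKM (SD, n = 3 each), a call that was lost without empty vector 2 or any 1 O/E library. ANAPC11, the RING subunit of the anaphase-promoting complex, rose from 7.53 ± 0.95 to 10.8 ± 0.60 FPKM (SD, n = 3 each), a call lost without O/E 3.

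**Figure D4:**
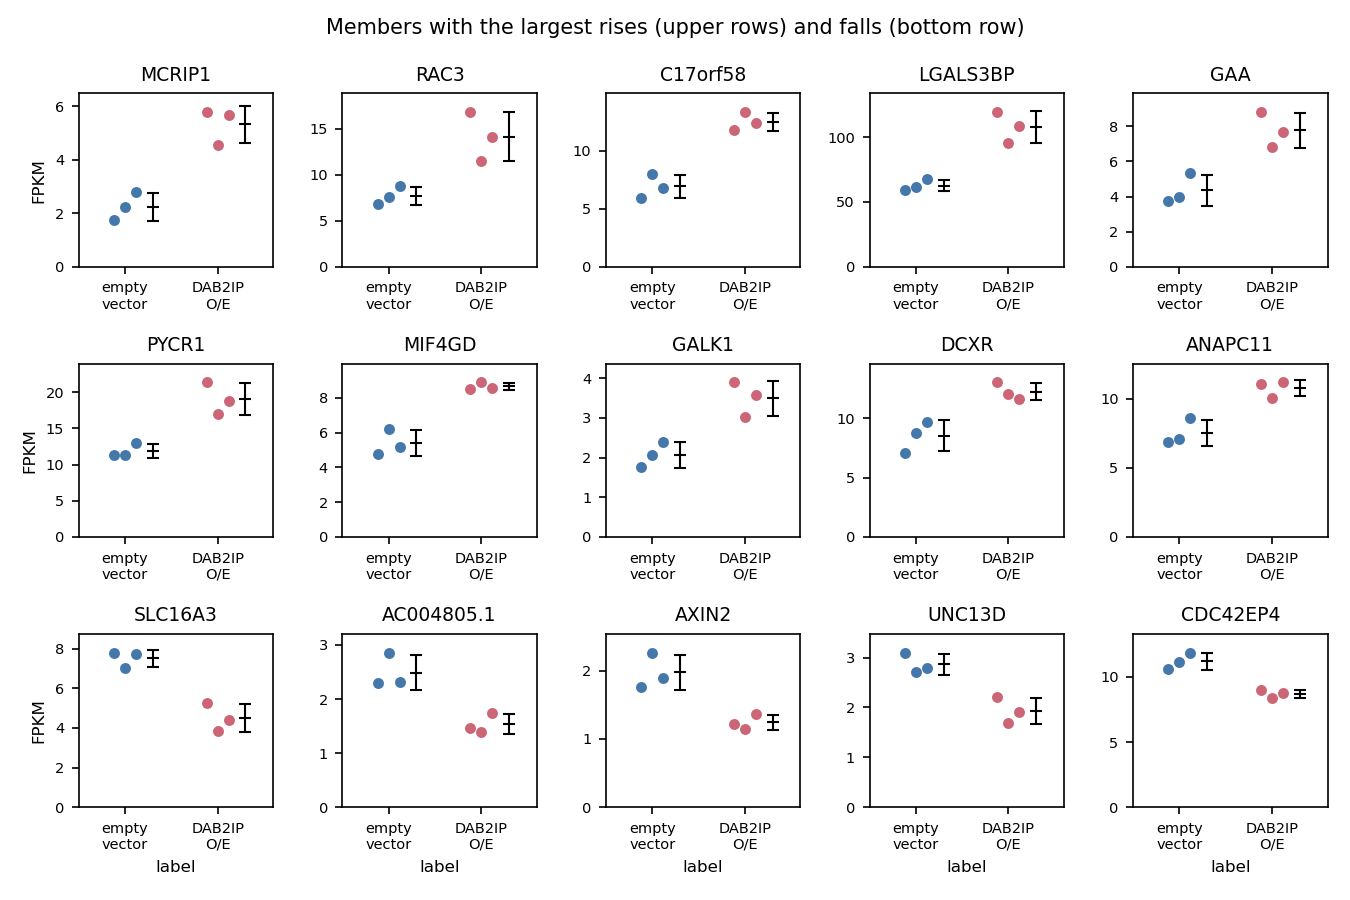
FPKM in each library (points, replicates 1 to 3 from left to right) for the 10 members with the largest rises and the 5 called lower, with empty vector in blue, DAB2IP O/E in red and the mean ± SD in black; every axis starts at 0. By the rule that named these genes the groups lie apart in all 15 panels, with MCRIP1 between 1.74 and 2.78 FPKM in controls and between 4.53 and 5.78 FPKM in O/E.

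Lower calls numbered 5. SLC16A3, the monocarboxylate transporter that exports lactate, was at 7.80, 7.04 and 7.72 FPKM with empty vector and 5.26, 3.84 and 4.39 FPKM with O/E (log2 change -0.64, SE 0.10). It lies at 82.23 Mb, among neighbours whose changes were above 0. AXIN2 was at 1.75, 2.26 and 1.90 FPKM with empty vector and 1.21, 1.15 and 1.37 FPKM with O/E (log2 change -0.40, SE 0.09). AC004805.1, which shares 93.8% of its exon bases with other genes, AXIN2 among them, had a log2 change of -0.46, so these are not separate measurements where counting could give the same reads to both. UNC13D, which primes granules for exocytosis, fell from 2.87 ± 0.21 to 1.94 ± 0.26 FPKM (SD, n = 3 each). CDC42EP4, an effector of the GTPase CDC42, fell from 11.2 ± 0.65 to 8.70 ± 0.31 FPKM (SD, n = 3 each). The call of AXIN2 was lost without empty vector 2 or any 1 O/E library, that of AC004805.1 without O/E 1 and that of UNC13D without O/E 3.

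The most abundant members, on the FPKM scale that accounts for transcript length, differed in their change. ACTG1, the cytoplasmic gamma-actin gene, was at 377.1, 360.9 and 400.6 FPKM with empty vector and 528.7, 499.4 and 526.9 FPKM with O/E (log2 change 0.45, SE 0.06). P4HB, a protein disulfide isomerase of the endoplasmic reticulum, was at 114.5, 105.8 and 112.0 FPKM with empty vector and 142.4, 132.1 and 129.2 FPKM with O/E (log2 change 0.28, SE 0.06). Both rose, and the call of P4HB was lost without empty vector 2 or O/E 1. DDX5 was at 218.7 ± 11.1 and 223.2 ± 11.3 FPKM, SRSF2, a splicing factor gene, at 117.8 ± 1.71 and 115.1 ± 4.96 FPKM, and KPNA2 at 107.6 ± 5.07 and 104.8 ± 5.02 FPKM with empty vector and O/E (SD, n = 3 each). The groups of these last genes overlapped. TK1, the cytosolic thymidine kinase of S phase, averaged 91.8 ± 8.77 FPKM in controls and 82.6 ± 6.35 FPKM in O/E (SD, n = 3 each) and was not called.

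The members were also read by function. The calls of each list stand beside 9.29% of all genes tested called higher and 9.17% called lower, and the lists differ in how many of their members lie beyond 70 Mb, so function and position cannot be told apart in them. Of 10 tested lysosome and glycan genes, 8 were called higher and none lower, with a median log2 change of 0.42. All 10 lie beyond 70 Mb. Besides GAA and GALK1, the sialyltransferase ST6GALNAC2 rose from 5.30 ± 0.12 to 7.62 ± 0.50 FPKM, its neighbour ST6GALNAC1 from 6.46 ± 0.08 to 8.64 ± 0.32 FPKM and the nucleotidase CANT1 from 7.01 ± 0.14 to 9.98 ± 0.70 FPKM (SD, n = 3 each). ENGASE, SGSH and FN3KRP were also called. The list is broader than its name, since GALK1 acts on galactose and FN3KRP on glycated proteins. ST6GALNAC2 shares 38.5% of its exon bases with another annotated gene. The higher calls of this list numbered 4 without O/E 3 and 5 without O/E 1, and its median log2 change lay between 0.37 and 0.47 whichever library was left out.

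Of 16 tested secretory and endosome genes, 7 were called higher and 1, UNC13D, lower, with a median log2 change of 0.16. P4HB, the autophagy gene WDR45B (21.2 ± 0.82 to 25.5 ± 0.30 FPKM, SD, n = 3 each) and the exocyst subunit EXOC7 (15.4 ± 0.51 to 18.6 ± 0.56 FPKM, SD, n = 3 each) were among those that rose. The higher calls numbered 0 without empty vector 2, 1 without O/E 3 and 2 without O/E 1. Of 12 mitochondrial genes, 4 were called higher and none lower, with a median of 0.19. They were PYCR1, PGS1 of cardiolipin synthesis, and the ribosomal protein genes MRPL38 and MRPL12, which share 41.1% and 68.2% of their exon bases with other genes. Higher calls in the mitochondrial list ranged from 1 to 5 when single libraries were left out.

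Among 15 kinase and GTPase signalling genes, 6 were called higher and none lower (median log2 change 0.15, with 2 to 6 higher when single libraries were left out). They included RAC3, its inhibitor ARHGDIA (35.3 ± 1.95 to 46.8 ± 4.92 FPKM), the cytokine feedback inhibitor SOCS3 (29.4 ± 1.29 to 36.3 ± 0.61 FPKM) and the adaptor GRB2 (26.9 ± 0.76 to 30.3 ± 0.43 FPKM; SD, n = 3 each). The call of GRB2 was lost without any 1 of 5 libraries (all but empty vector 1). RPTOR, the mTORC1 scaffold, was at 1.76 ± 0.15 and 2.11 ± 0.22 FPKM (SD, n = 3 each) and was not called. Of 11 cytoskeleton, polarity and adhesion genes, 4 were called higher (ACTG1, LGALS3BP, EVPL and TBCD) and 1, CDC42EP4, lower, with a median of 0.23 and 2 to 5 higher when single libraries were left out. Of 9 lipid and metabolite enzymes and transporters, DCXR and AFMID were called higher and SLC16A3 lower, with a median of 0.16 and 0 to 3 higher when single libraries were left out. FASN measured 31.0, 35.5 and 42.7 FPKM with empty vector and 43.2, 38.2 and 43.8 FPKM with O/E, so its groups overlapped and it was not called.

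Members from 60 to 70 Mb made up 6 of the 15 kinase and GTPase signalling genes above and 3 of the 16 secretory and endosome genes. In the lists that follow they were 7 of 16 tested RNA processing genes and 4 of 12 chromatin and transcription genes. They were also 3 of 12 cell cycle and DNA repair genes and 3 of 11 ubiquitin, SUMO and proteasome genes. No difference between lists was tested. Of the 16 RNA processing genes, 2 were called higher, the deubiquitinase USP36 (5.11 ± 0.28 to 6.89 ± 0.13 FPKM) and the tRNA dihydrouridine synthase DUS1L (8.83 ± 0.67 to 11.7 ± 1.54 FPKM; SD, n = 3 each), and the median log2 change was 0.04. When single libraries were left out, 1 to 2 RNA processing genes were called higher and their median lay between 0.03 and 0.07. Of 12 chromatin and transcription genes, SMARCD2, MAFG and FOXK2 were called higher, with a median of 0.13, and 1 to 3 were when single libraries were left out. SMARCD2, a subunit of SWI/SNF remodelling complexes, lies below 70 Mb and was at 36.9, 35.5 and 35.9 FPKM with empty vector and 46.5, 44.0 and 44.2 FPKM with O/E. The Polycomb genes CBX2 and CBX8 were at 4.43 ± 0.20 and 2.16 ± 0.16 FPKM with empty vector and 4.69 ± 0.38 and 2.59 ± 0.13 FPKM with O/E (SD, n = 3 each), and neither was called.

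Of 12 cell cycle and DNA repair genes, ANAPC11 and CENPX were called higher, with a median log2 change of 0.10, and 0 to 2 were when single libraries were left out. BIRC5, which encodes survivin, was at 34.8, 35.9 and 35.9 FPKM with empty vector and 32.8, 33.7 and 31.7 FPKM with O/E and was not called, although its groups did not overlap. BIRC5 and TK1 lie next to SYNGR2 and AFMID, which were called higher. Of 11 ubiquitin, SUMO and proteasome genes, GPS1, KCTD2 and NPLOC4 were called higher, with a median of 0.04, and 0 to 3 were when single libraries were left out. The call of NPLOC4 was lost without any 1 of the 6 libraries. Of 3 tested WNT pathway genes, AXIN2 was called lower, and SOX9 (0.82 ± 0.25 and 1.25 ± 0.10 FPKM, SD, n = 3 each) and SMURF2 were not called. All O/E values of SOX9 lay above the controls, and the authors' deposited table had it past 0.05 and higher. Higher calls in the WNT list ranged from 0 to 2 when single libraries were left out. Of 7 genes of the interval that mark leukocytes or endothelium, 6 were below the filter, the highest at 0.891 FPKM. TMC8 was called higher at 0.83 ± 0.01 and 1.28 ± 0.18 FPKM (SD, n = 3 each). That call was lost with a replicate block and with GC and length trends removed (log2 change 0.23). Below the filter, all O/E values lay below the controls for PECAM1 (means 0.184 and 0.106 FPKM) and CD79B (0.107 and 0.009 FPKM), while the groups of ICAM2, MILR1 and RAB37 overlapped. CD79B rests on 5, 3 and 8 reads with empty vector and 2, 0 and 0 with O/E. PECAM1 had 22, 36 and 44 reads with empty vector and 34, 21 and 20 with O/E. The groups of the gene at 0.891 FPKM are not described here. With limma-voom on recovered reads, 3 genes of this list were tested, 1 called higher and 1 lower. None of the leukocyte or endothelial markers measured beside them reached 1 FPKM.

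**Figure D5:**
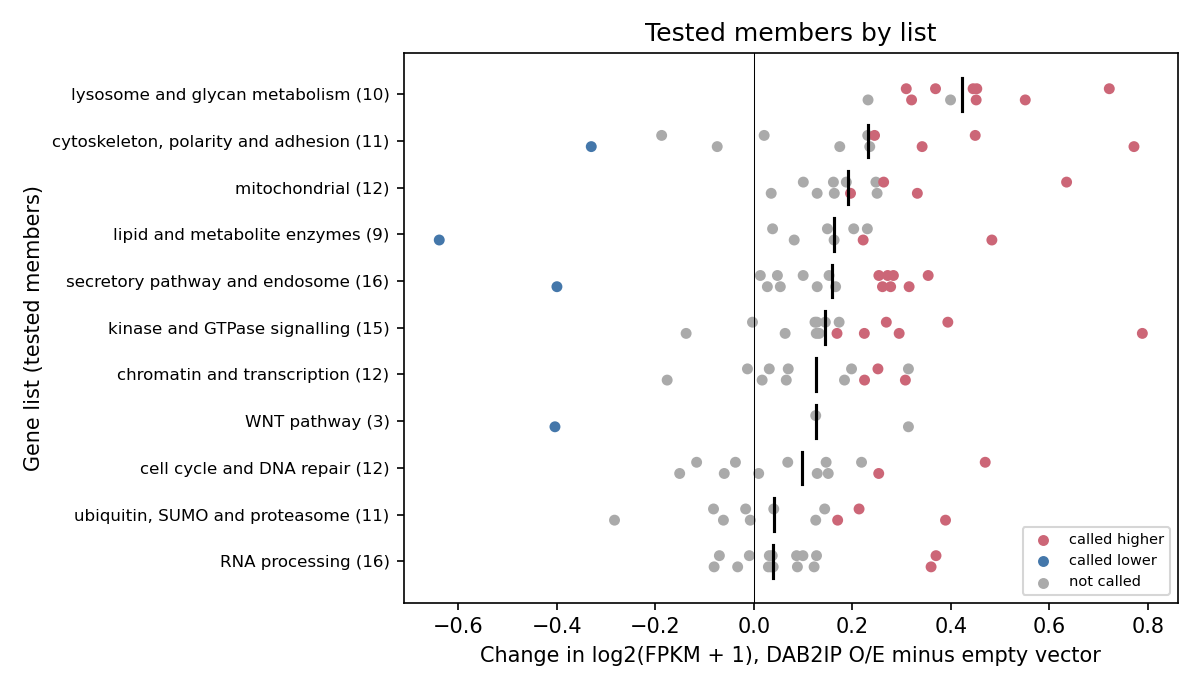
Each point is a tested member in a functional list (vertical, with the number tested), placed by its change in log2(FPKM + 1) (horizontal) and coloured red where called higher, blue where called lower and grey where not called; black bars are list medians. The lysosome and glycan list has the highest median, 0.42, and all its points lie above 0, while the RNA processing list has a median of 0.04.

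The calls of AFMID, ARHGDIA, CENPX, CSNK1D, DUS1L, EXOC7, FN3KRP, FOXK2, GPS1, KCTD2, MAFG, MRPL12, MRPL38, PGS1, TBCD, TMC8 and WDR45B were each lost without at least 1 of the 6 libraries. Those of MAFG and TMC8 were lost without any 1 of 5 libraries. Those of CENPX, DUS1L, FOXK2, KCTD2, MRPL12, PGS1 and TBCD were lost without any 1 of 4. With GC and length trends removed the call of MRPL12 was lost as well (log2 change 0.07). With no filter on low values those of SLC39A11, DUS1L, FOXK2, KCTD2, NPLOC4 and TMC8 were lost, and with equal library medians those of KCTD2, NPLOC4 and GRB2. The calls of MCRIP1, RAC3, C17orf58, LGALS3BP, GAA, PYCR1, MIF4GD, ACTG1, USP36, SMARCD2, SOCS3, CANT1, ST6GALNAC1, ST6GALNAC2, SLC16A3 and CDC42EP4 held whichever library was left out.

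Members below the filter had levels too low for a test. In bulk RNA, fewer cells with a transcript and less of it per cell cannot be told apart. Of the 69, 39 had a mean of at least 0.1 FPKM, 14 lay between 0.5 and 1 FPKM, and none was listed at 0 in all 6 libraries. FN3K, the kinase gene beside FN3KRP that repairs glycated proteins, was at 0.492, 0.386 and 0.291 FPKM with empty vector and 0.869, 0.653 and 0.800 FPKM with O/E. MGAT5B, a brain-enriched glycosyltransferase gene, was at 0.330, 0.298 and 0.414 FPKM with empty vector and 0.518, 0.428 and 0.491 FPKM with O/E. For both the O/E values lay above the controls. ARSG, a lysosomal sulfatase gene below 70 Mb, overlapped between groups, with 0.689 ± 0.12 FPKM and 0.616 ± 0.06 FPKM (SD, n = 3 each).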

How the data were processed

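Poly-A RNA of OVCAR3 cells was made into libraries with a stranded kit, 3 for each vector (per the labels' protocols). Whether cultures were separate is not said there, and p-values then reflect spread among these libraries alone, part of which may be technical. The authors deposited FPKM per gene and library, and a comparison table with a mean normalised count (signal), a log2 fold change, a test statistic (a score) and p-values, per the file headers. The sign of the deposited fold change set empty vector over O/E, differing by at most 0.0113 from the log2 ratio of mean FPKM for 8277 genes with a mean normalised count over 500, and was turned here. Per the submitters' processing notes, the tools were Trimmomatic 0.32, TopHat2 2.1.1, Bowtie, R 3.3.1 and DESeq2 1.12.4, and the builds GRCh38.p5 and hg19, without roles. The tool, annotation and strand setting of the counting were not given in the sources used here. Therefore genes that share exon bases, on either strand, are uncertain. Of the gene identifiers, 25344 had the same version and coordinates in GENCODE 29, so positions are in GRCh38.

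Groups were compared by limma 3.58.1 under R 4.3.3 (trended eBayes, 2-sided) on log2(FPKM + 1) of the 14761 genes that averaged 1 FPKM or more, with no covariate and Benjamini-Hochberg adjustment over all of them. The scale understates changes of low genes. The fit was also run on simulated counts, drawn independently with a fixed spread and without the library and GC differences of the real data. That run checks the working of the fit only, and says nothing on the calls made here. Reads were recovered from the FPKM as whole numbers for 100% of values (tolerance 0.05). A tested member had 11 to 56566 reads in a library (median 1016.5). No pair of libraries was a duplicate. GC content and length were those of GENCODE 29 transcripts.

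The members and lists were chosen with earlier results of these data known. The genes named are DAB2IP, the 10 largest rises and falls among called members whose groups lie apart, neighbours of 60 Mb, 70 Mb and the end, the 6 highest levels, the 4 or fewer tested members with the lowest p in every list, and 10 fixed genes, of which 1 is not reported here. RNF213, SYNGR2, ENGASE, SGSH, FN3K, MGAT5B, ARSG, ENDOV, CCDC57, PECAM1, CD79B, ICAM2, MILR1, RAB37 and the remaining called members of small lists were named after their values were seen. Alternatives were other pseudocounts, filters, scalings and limma settings, a replicate block, removal of GC and length trends, limma-voom on recovered reads, and leaving out each library.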

Additional observations from a re-analysis of the deposited data

How the results depend on the processing

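No called result reversed under any alternative run. Higher calls among members ranged from 19 to 59 when single libraries were left out (19 without O/E 3, 22 without empty vector 2 and 23 without O/E 1), and lower calls from 3 to 5. The median log2 change of members then ranged from 0.15 to 0.21. That median was 0.20 with a pseudocount of 0.1, 0.13 with no filter on low values (0.16 for members from 70 Mb) and 0.20 with limma-voom on recovered reads, which called 93 members higher and 7 lower of 228 tested. Lower calls were 2 with a filter of 5 FPKM. With GC and length trends removed, lower calls were 12 and the median from 70 Mb was 0.16. With these trends removed and a replicate block, lower calls were 9 and that median was 0.16. Without members that share over 10% of exon bases, an alternative chosen after seeing the data, lower calls were 3. With equal library medians, 40.9% of all calls were higher, against 50.3% in the reported fit, and members had 58 higher and 6 lower. In that fit 7.89% of all genes tested were called higher, beside 31.2% of the members. The causes were not tested.

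Libraries of the same replicate number had weak correlations of deviations (0.12, 0.099 and 0.058), but each library correlated best with its own number. The other pairs ran from -0.116 to 0.018. Whether the numbers pair the libraries is not given in the labels and was not tested. A replicate block gave 60 members higher and 5 lower, and GRB2, MRPL12, NPLOC4 and TMC8 lost their calls. Over the named genes and alternatives, 1115 values stayed on their side of the threshold, 113 lost a call, 22 gained one and 28 that were not called changed sign. With 3 libraries a group, single-gene calls near the threshold depend on each library.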
